A study of Mus musculus with 12 samples.

Results

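The genes that move calcium into and out of the sarcoplasmic reticulum of heart muscle were examined as a set of 10: the pump Atp2a2, its small inhibitors Pln and Sln, the luminal proteins Casq2 and Hrc, the release channel Ryr2, and the channel's partners Trdn, Asph, Jph2 and Fkbp1b. They were chosen by their roles, with earlier results of these data known, so counts and medians over them are descriptions. Matching the Ensembl ID of each table entry to these symbols gave 10 of the 21959 gene IDs in the table. Of the 10, 8 had enough reads to be tested for a difference between genotypes. Sln and Fkbp1b did not pass the filter on low counts.

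The study measured RNA from heart ventricles by sequencing of poly-A selected RNA in 12 chow-fed male mice aged 7 weeks. In 6 mice Vps13c, a gene for a lipid transfer protein that sits at contacts between organelles, had a cardiac-specific knockout (Vps13c-cKO), and 6 were wild type (WT). The sources used here do not give the strain, the promoter or line that confined the deletion to cardiac tissue, or whether WT mice had any part of that system. The labels give separate mouse numbers for the 12 libraries, so the spread within a group is that between mice.

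In each heartbeat calcium enters the cardiomyocyte through L-type channels and opens Ryr2 in the facing membrane of the sarcoplasmic reticulum, which releases a much larger amount into the cytosol and so starts contraction. Atp2a2 then pumps calcium back and relaxation follows. Phospholamban, the product of Pln, brakes the pump until it is phosphorylated, and calsequestrin 2, the product of Casq2, holds calcium in the lumen between beats.

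The libraries held 12484523 to 15562942 counts. Vps13c averaged 18.2 ± 1.58 CPM (reads scaled to library size) in Vps13c-cKO ventricles and 61.9 ± 4.85 CPM in WT ventricles (SD, n = 6 each). That was -1.77 ± 0.06 (SE) on the log2 scale, at an adjusted p of 4.47e-14 in edgeR's quasi-likelihood test. Vps13c reads in Vps13c-cKO mice thus came to 29.4% of the WT mean. Mitochondrially encoded genes took 31.2% ± 0.606 of counts in Vps13c-cKO libraries and 30.1% ± 0.761 in WT libraries. The ventricular cardiomyocyte markers, such as Myh6, were abundant in all libraries and summed to 60767 to 65229 CPM in Vps13c-cKO mice and 62298 to 67367 CPM in WT mice. The library of WT mouse 4 stood apart from the other 11 in genes of atrial muscle, the chamber where Sln is mainly expressed in the mouse. It held 405 reads of Myl7, the atrial myosin light chain, where Vps13c-cKO libraries held 0 to 5 and the other 5 WT libraries 0 to 2. It also held 433 reads of Myl4, against 11 to 31 in Vps13c-cKO and 8 to 19 in the other WT libraries. The values of Sln, Atp2a2, Ryr2 and some count ratios are also given without it, while the sums of the atrial markers are not.

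Of the 8 tested calcium cycling genes, 3 fell in Vps13c-cKO ventricles, Atp2a2, Hrc and Trdn, and 0 rose at an adjusted p under 0.05. Over all 12384 tested genes, 5.1% were lower and 5.65% higher by the same rule. The 3 lower genes were also those in which all 6 Vps13c-cKO mice lay below all 6 WT mice, which held for 2.18% of all tested genes. The log2 fold change was negative in 7 of the 8, with a median of -0.10, beside a median of 2.75e-05 over all tested genes. Together the 10 genes took 1.98% ± 0.0800 of all counts in Vps13c-cKO libraries and 2.22% ± 0.0738 in WT libraries. In RNA from whole ventricle, fewer cardiomyocytes and less of these RNAs per cardiomyocyte cannot be told apart.

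**Figure D1:**
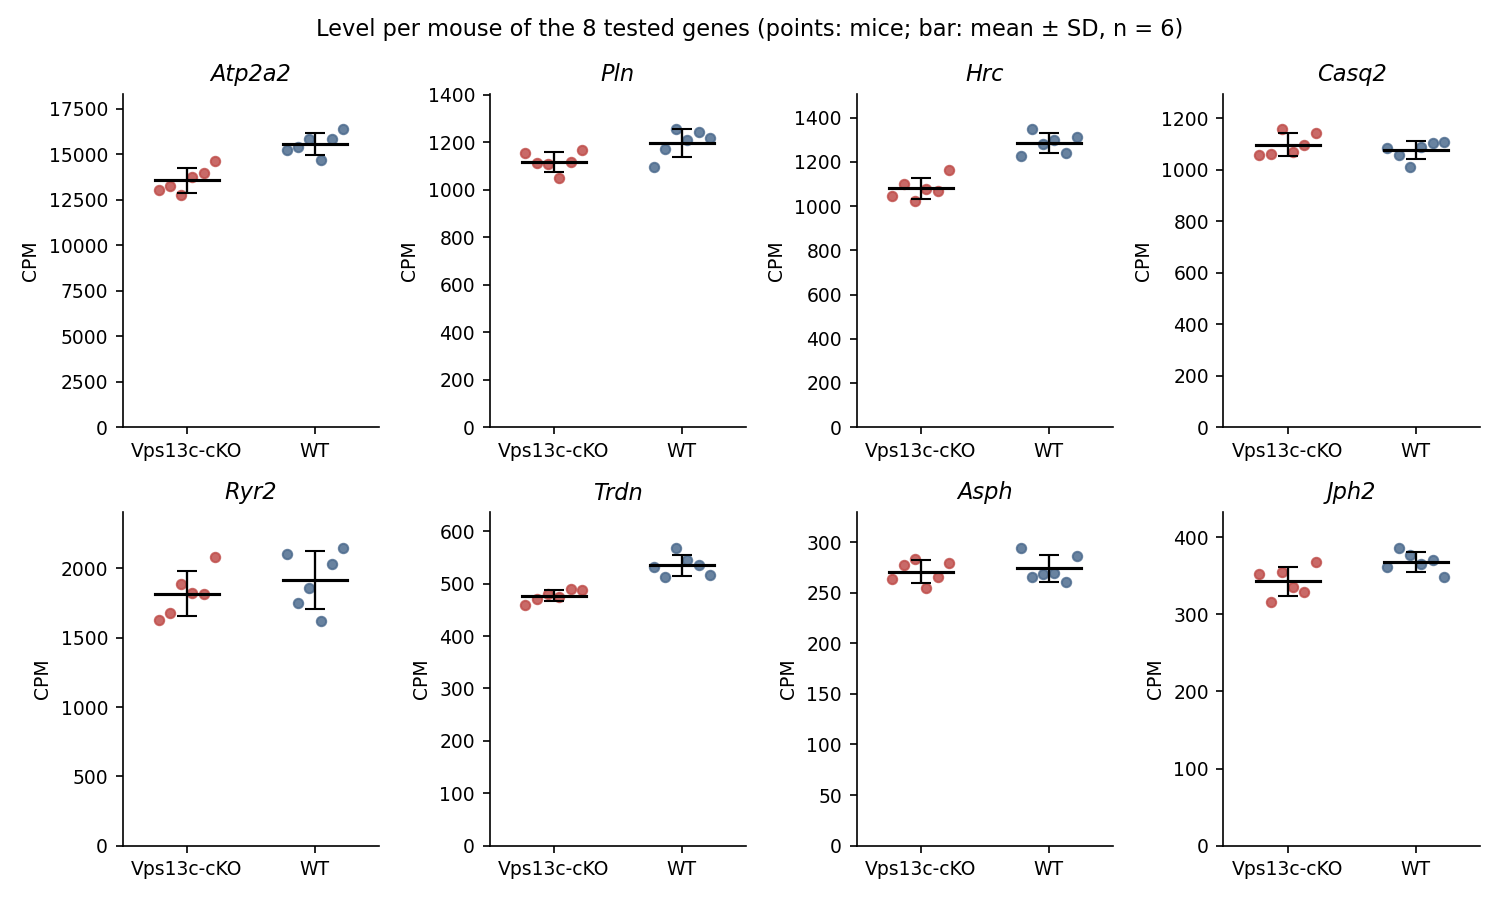
CPM of the 8 tested calcium cycling genes in each mouse, Vps13c-cKO left of WT; each point is a mouse and the bars are mean ± SD of 6 mice. Atp2a2, Hrc and Trdn are the genes in which no Vps13c-cKO mouse reaches the lowest WT mouse, while the groups overlap in the other 5.

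The pump gene came first in amount. Atp2a2 (ENSMUSG00000029467, chromosome 5), which encodes SERCA2, the ATPase that loads the sarcoplasmic reticulum, had a lowest value of 12765, a median of 13500 and a highest value of 14623 CPM in Vps13c-cKO mice, against 14669, 15621 and 16369 CPM in WT mice. The highest Vps13c-cKO mouse lay just under the lowest WT mouse, which was mouse 4, and the groups did not overlap. The means were 13571 ± 682 CPM in Vps13c-cKO and 15555 ± 592 CPM in WT mice, a log2 fold change of -0.20 ± 0.03 (95% interval -0.27 to -0.13; edgeR adjusted p = 0.000460) or 12.8% less. Without WT mouse 4 the log2 fold change was -0.21, and without mitochondrially encoded genes it was -0.20. Within groups, the tested genes whose level followed Atp2a2 most closely were Rmnd5a, Amd1 and Nktr, with Pearson correlations of 0.91, 0.89 and 0.88 of log2 CPM centred on each group's mean over 12 mice, among 4097 genes compared. All share the library with Atp2a2 and these values describe that ranking only.

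Pln (ENSMUSG00000038583, chromosome 10), the pump's brake, ran from 1051 through a median of 1114 to 1167 CPM in Vps13c-cKO mice and from 1095 through 1214 to 1256 CPM in WT mice. The groups overlapped, with 1 Vps13c-cKO mouse below all WT mice. The log2 fold change was -0.10 ± 0.04 (95% interval -0.17 to -0.03) and did not pass adjustment (edgeR adjusted p = 0.0789), although leaving out WT mouse 1 brought it to -0.13 with an adjusted p of 0.0180. Exons of Pln overlap those of Cep85l on the opposite strand over 141 of 2759 bases, and the sources name no strand setting. On that strand Gm47644, which has no entry among the counted genes, overlaps them over 1644 bases. Reads in either stretch cannot be assigned to one gene with certainty.

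Sln (ENSMUSG00000042045, chromosome 9), whose product sarcolipin inhibits the pump as phospholamban does, had 1 read in Vps13c-cKO mouse 3 and 0 in the other 5 Vps13c-cKO mice. In WT mice it had 114 reads in mouse 4 and 0 in the other 5. At these depths a count of 0 allows up to 0.191 to 0.240 CPM per library (3 counts, counting error only). The 114 Sln reads, or 8.24 CPM, came from the library that also held the Myl7 and Myl4 reads. Fitted without the filter, Sln had a log2 fold change of -6.00 ± 1.72 (edgeR adjusted p = 0.0321), a value set by that library. Without it, Sln was at or near 0 in all 11 mice and no difference was detectable at this depth.

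Dkk3 and Mybphl, also genes of atrial muscle, were likewise highest of all 12 libraries in WT mouse 4, at 70 and 50 reads. Of the 12 atrial markers listed, 7 could be tested, of which Nppa was higher and Kcnj3 lower in Vps13c-cKO mice. Over all tested genes 5.65% were higher and 5.1% lower. The list summed to 139 to 160 CPM in Vps13c-cKO and 162 to 239 CPM in WT mice. The 239 CPM was that of WT mouse 4, and the range without it was not computed. Kcnj3 was the largest part of the sum, at a mean of 68.1 CPM in Vps13c-cKO and 107 CPM in WT mice. Nppa went the other way, at 19.7 CPM in Vps13c-cKO and 4.56 CPM in WT mice. The sums thus do not describe the atrial markers as a whole. Bmp10 was at 0 in all WT libraries, mouse 4 included.

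**Figure D2:**
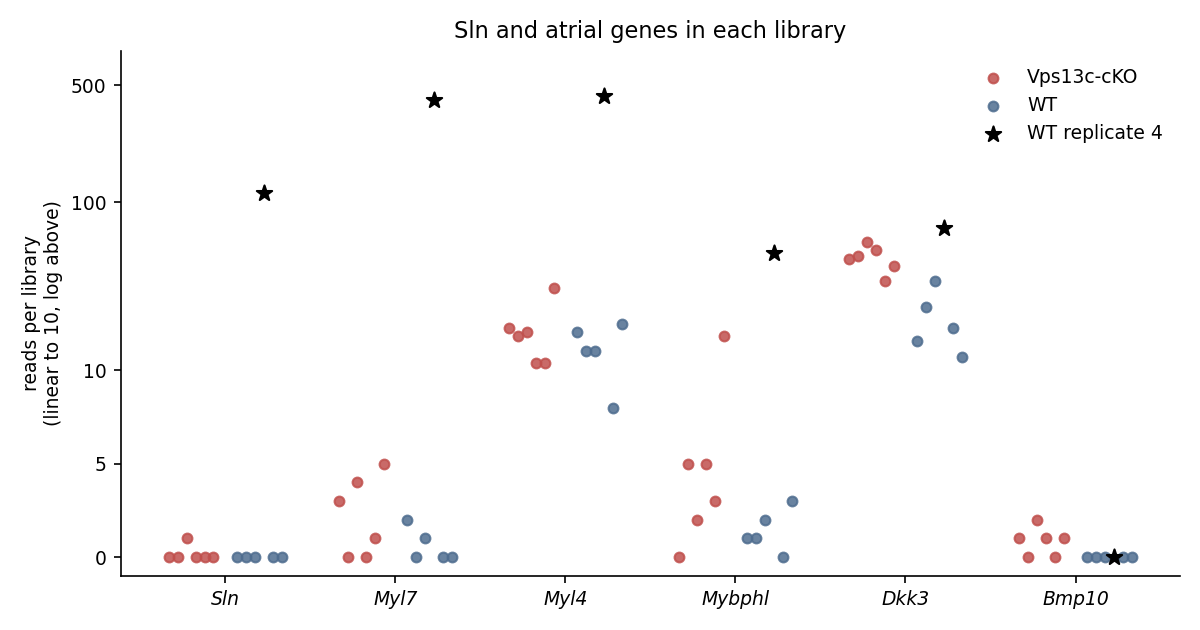
Read counts of Sln and genes of atrial muscle in each library, Vps13c-cKO left of WT, on an axis that is linear near 0 and logarithmic above. WT mouse 4 (star) lies far above the other 5 WT mice in Sln, Myl7, Myl4 and Mybphl, with 114 reads of Sln.

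In the lumen, the proteins that bind calcium did not move alike. Hrc (ENSMUSG00000038239, chromosome 7) encodes the histidine-rich calcium-binding protein, which sits in the lumen and binds both the pump and triadin. It had 1024, 1074 and 1163 CPM as lowest, median and highest value in Vps13c-cKO mice, against 1226, 1292 and 1348 CPM in WT mice. All 6 Vps13c-cKO mice were below all 6 WT mice. The means of 1081 ± 48.1 and 1285 ± 45.5 CPM gave a log2 fold change of -0.25 ± 0.03 (95% interval -0.32 to -0.18; edgeR adjusted p = 4.66e-05), which was 15.9% less in Vps13c-cKO ventricles and the lowest log2 fold change among the 8 tested genes. Of the 955 tested genes of chromosome 7, 9.63% were higher and 8.9% lower in Vps13c-cKO mice, beside 5.65% and 5.1% of all tested genes. Whether the position of Hrc has a part in its value was not tested.

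Casq2 (ENSMUSG00000027861, chromosome 3), the main calcium store of the cardiac lumen, ran from 1057 through a median of 1082 to 1157 CPM in Vps13c-cKO mice and from 1012 through 1086 to 1107 CPM in WT mice. The ranges lay over each other, and the log2 fold change of 0.03 ± 0.03 was the one positive value among the 8 tested genes (95% interval -0.04 to 0.10; edgeR adjusted p = 0.664). The other luminal proteins on the lists, Calr (calreticulin) and Srl (sarcalumenin), had log2 fold changes of -0.06 and 0.02 (edgeR adjusted p = 0.523 and 0.776).

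The promoters of Hrc and Casq2 are shown because these luminal genes had unlike changes. The windows are 250 bases before to 50 after the start, from RefSeq on GRCm38.p6, and 6 of the 10 genes had such a sequence (all but Atp2a2, Sln, Trdn and Asph). Hrc lies at chr7:45335019-45335318 and Casq2 at chr3:102086165-102086464, both on the plus strand. Both strands were searched for the E-box (letters CANNTG), the GATA motif (letters GATAA), the TATA box (letters TATAAA), the CArG box and the MEF2 motif, and capitals mark the matches.
Hrc: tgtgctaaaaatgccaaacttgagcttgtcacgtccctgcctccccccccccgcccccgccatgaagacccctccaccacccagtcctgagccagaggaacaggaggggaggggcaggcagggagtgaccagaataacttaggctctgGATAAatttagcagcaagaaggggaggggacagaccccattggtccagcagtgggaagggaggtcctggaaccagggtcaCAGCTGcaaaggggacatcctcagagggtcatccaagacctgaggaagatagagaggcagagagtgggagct
Casq2: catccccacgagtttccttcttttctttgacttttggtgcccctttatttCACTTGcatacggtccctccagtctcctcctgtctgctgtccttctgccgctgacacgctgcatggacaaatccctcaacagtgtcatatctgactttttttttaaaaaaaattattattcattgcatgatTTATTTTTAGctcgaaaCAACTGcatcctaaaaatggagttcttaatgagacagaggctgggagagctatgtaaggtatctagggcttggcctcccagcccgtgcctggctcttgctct
The Hrc window held an E-box at -22 and the GATA motif at -102 from the start, and the Casq2 window held E-boxes at -200 and -52 and the MEF2 motif at -69. Among 32851 promoters of the same length, 72.3% held an E-box, 25.4% the GATA motif, 13.6% the TATA box, 1.63% the CArG box and 3.19% the MEF2 motif. A match describes the letters only.

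Hrc and Casq2 counts were also set against each other within each mouse, which removes any scaling between libraries. Hrc reads were 98.6% ± 5.38 of Casq2 reads in Vps13c-cKO mice, with a range of 88.5% to 103.8%. In WT mice they were 119.7% ± 6.46, with a range of 112.6% to 127.6%. The groups did not overlap and the log2 ratio differed by -0.28 (exact two-sided permutation test over mice, p = 0.00216, the smallest that 6 against 6 can give, and 0.0173 adjusted over the 8 ratios examined). This was the one ratio of the 8 past the threshold.

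The other 7 ratios gave adjusted p-values of 0.0519 to 0.998. Trdn reads were 176% ± 7.27 of Asph reads in Vps13c-cKO and 196% ± 12.9 in WT mice, a log2 difference of -0.15 (exact permutation p = 0.0130, adjusted p = 0.0519). Pln reads were 8.26% ± 0.465 of Atp2a2 reads in Vps13c-cKO and 7.71% ± 0.374 in WT mice, a log2 difference of 0.10 (exact permutation p = 0.0541, adjusted p = 0.144). Without WT mouse 4 the Pln to Atp2a2 difference was 0.12, that of Casq2 to Ryr2 0.15 and that of Trdn to Asph -0.14, each with an adjusted p of 0.0381 by the same exact permutation test. Trdn to Asph also passed without WT mouse 1 or WT mouse 6 (adjusted p = 0.0433, exact permutation test). Atp2a2 reads set against those of Slc8a1, the sodium-calcium exchanger that removes calcium across the cell membrane, differed by -0.04 (exact permutation p = 0.481, adjusted p = 0.641).

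**Figure D3:**
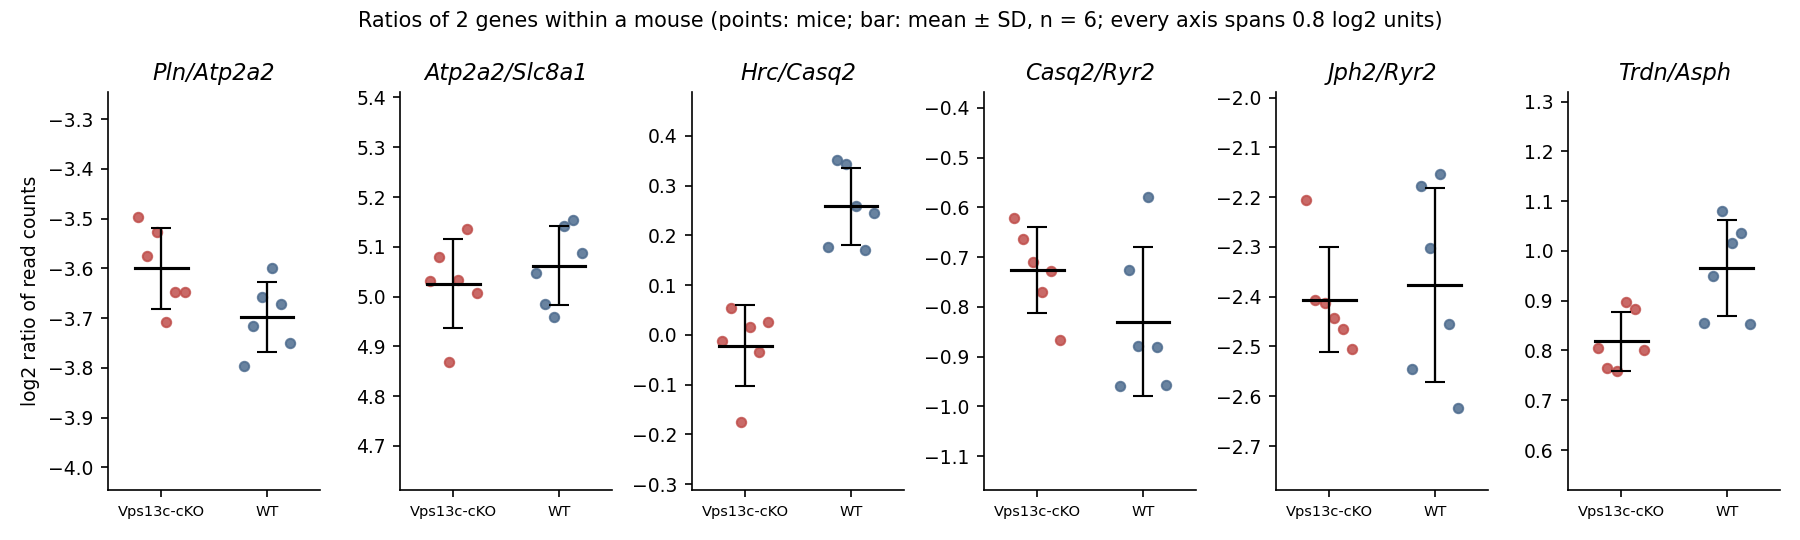
Log2 ratios of read counts within each mouse for 6 of the 8 pairs tested (those with Sln or Fkbp1b, at few reads, are not drawn), Vps13c-cKO left of WT; points are mice and bars mean ± SD of 6. For Hrc over Casq2 all 6 Vps13c-cKO mice lie below all 6 WT mice, while the groups overlap in the other 5 pairs drawn.

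Among the genes of the release unit, Ryr2 (ENSMUSG00000021313, chromosome 13), the calcium release channel, varied most between mice of one group. Its coefficient of variation was 8.96% in Vps13c-cKO and 10.9% in WT mice, against 2.32% to 5.56% in the other 7 tested genes. It ran from 1625 through a median of 1818 to 2084 CPM in Vps13c-cKO mice and from 1624 through 1945 to 2149 CPM in WT mice. The ranges nearly coincided, and the log2 fold change of -0.08 ± 0.06 did not pass the test (95% interval -0.21 to 0.05; edgeR adjusted p = 0.4998). It was -0.12 without WT mouse 4 or without Vps13c-cKO mouse 6 and -0.05 without Vps13c-cKO mouse 1, WT mouse 1 or WT mouse 6, with edgeR adjusted p-values of 0.204 to 0.735 over the 12 fits that left out 1 mouse.

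Trdn (ENSMUSG00000019787, chromosome 10) encodes triadin, the membrane protein that ties calsequestrin to the channel. It had 459.8, 477 and 489 CPM as lowest, median and highest value in Vps13c-cKO mice, against 513, 534 and 569 CPM in WT mice. The groups were apart. The means were 477 ± 11.1 CPM in Vps13c-cKO and 535 ± 20.1 CPM in WT mice, a log2 fold change of -0.17 ± 0.03 (95% interval -0.23 to -0.10; edgeR adjusted p = 0.00161) or 10.8% less.

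Asph (ENSMUSG00000028207, chromosome 4) encodes junctin, a relative of triadin in the same complex, along with an aspartyl hydroxylase and junctate, and its counts do not separate these products. It ran from 255 to 284 CPM with a median of 271 in Vps13c-cKO mice and from 261 to 294 CPM with a median of 269 in WT mice, a log2 fold change of -0.02 ± 0.04 (95% interval -0.10 to 0.06; edgeR adjusted p = 0.833). Its exons overlap those of Clvs1 on the opposite strand over 2302 of 16102 bases.

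Jph2 (ENSMUSG00000017817, chromosome 2), or junctophilin 2, holds the sarcoplasmic reticulum against the transverse tubule. It ran from 316 through a median of 344 to 367 CPM in Vps13c-cKO mice and from 349 through 368 to 386 CPM in WT mice. In 3 Vps13c-cKO mice the value was below all WT mice, and the groups overlapped. The log2 fold change of -0.10 ± 0.04 (95% interval -0.18 to -0.02) did not pass adjustment (edgeR adjusted p = 0.0924), but was -0.13 with an adjusted p of 0.0379 when Vps13c-cKO mouse 6 was left out.

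Fkbp1b (ENSMUSG00000020635, chromosome 12) encodes calstabin 2, a small protein bound to Ryr2. It had 7, 9, 3, 1, 9 and 6 reads in Vps13c-cKO mice 1 to 6 and 6, 6, 4, 1, 2 and 2 reads in WT mice 1 to 6. With sums of 35 reads in Vps13c-cKO and 21 in WT mice the groups overlapped. Without the filter the log2 fold change was 0.78 ± 0.51 (edgeR adjusted p = 0.412), so no difference was detectable at this depth. Its close relative Fkbp1a, which is expressed in most tissues, averaged 132 ± 3.78 CPM in Vps13c-cKO and 131 ± 3.75 CPM in WT mice (log2 fold change 0.02 ± 0.03, edgeR adjusted p = 0.825). Per length, Fkbp1b made up 1.21% ± 0.659 of the summed Fkbp1a and Fkbp1b level in Vps13c-cKO and 0.722% ± 0.458 in WT mice.

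To compare the genes with each other, counts were divided by exon length (RPKM, CPM per kilobase of exon). Atp2a2 stood highest at 2232 ± 112 RPKM in Vps13c-cKO and 2558 ± 97.4 RPKM in WT mice. It also took 68.6% ± 0.871 of the 10 genes' reads in Vps13c-cKO and 70.0% ± 0.434 in WT libraries, and was the 8th most abundant tested gene by WT CPM. In WT mice Hrc followed at 501 ± 17.8, then Pln at 435 ± 21.1 and Casq2 at 393 ± 13.1 RPKM. In Vps13c-cKO mice these 3 lay closer, at 421 ± 18.8, 405 ± 14.9 and 401 ± 16.01 RPKM, within about their spread of each other. Jph2, Ryr2 and Trdn came next, at 80.5, 63.2 and 51.0 RPKM in Vps13c-cKO and 86.5, 66.7 and 57.2 RPKM in WT mice. Asph followed at 16.8 RPKM in Vps13c-cKO and 17.03 RPKM in WT mice, with Fkbp1b and Sln near 0. With the length of the longest coding transcript, an alternative chosen after seeing the data, Trdn and Ryr2 stood above Jph2 in WT mice, so the order of these 3 rests on the length used.

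The heart forms of the pump, channel and calsequestrin have paralogs that are the main forms of fast skeletal muscle. Atp2a1 (SERCA1) had 33.0 ± 7.84 CPM in Vps13c-cKO and 0.605 ± 0.259 CPM in WT mice, a log2 fold change of 5.78 ± 0.21 (edgeR adjusted p = 4.49e-14). Ryr1 had 4.48 CPM in Vps13c-cKO and 0.335 CPM in WT mice (3.72 ± 0.29; edgeR adjusted p = 1.53e-08). Casq1 had 22.96 CPM in Vps13c-cKO and 7.67 CPM in WT mice (1.59 ± 0.16; edgeR adjusted p = 1.15e-06). All 3 rose with every Vps13c-cKO mouse above every WT mouse, which held for 2.75% of all tested genes.

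Their amounts stayed small beside the heart forms. Per length, Atp2a1 made up 0.422% of the summed level of the Atp2a genes in Vps13c-cKO and 0.00680% in WT mice. Ryr1 made up 0.322% of the Ryr genes in Vps13c-cKO and 0.0219% in WT mice, and Casq1 2.83% of the calsequestrin genes in Vps13c-cKO and 0.990% in WT mice. The mean difference of Atp2a1 was 32.4 CPM and that of Atp2a2 -1985 CPM, so the summed pump genes were still lower in Vps13c-cKO mice, at 13616 ± 688 CPM against 15566 ± 591 CPM in WT mice. Of the other 10 fast skeletal markers listed, 4 could be tested, Tnni2, Tnnt3, Mylpf and Mybpc2. All 4 rose, beside 5.65% of all tested genes. Tnni2, Tnnt3 and Mylpf had only 63, 61 and 66 reads over the WT libraries. They could thus pass the filter on low counts through their Vps13c-cKO reads, as could Atp2a1 and Ryr1 with 50 and 28 WT reads. A marker low in both groups could not be tested, so the 4 of 4 does not describe the list. The other 6 had few reads in both groups. Tnnc2 had none in any library and Actn3 the most, with 12 reads over the Vps13c-cKO and 11 over the WT libraries. The 4 that rose lie on chromosome 7, as do Atp2a1 and Ryr1, while Casq1 lies on chromosome 1. None of the 6 with few reads lies on chromosome 7. Of the 955 tested genes of chromosome 7, 9.63% were higher in Vps13c-cKO mice, beside 5.65% of all tested genes. The part of chromosome position in these rises was not tested. Without the paralogs the 10 summed to 38.3 to 55.9 CPM in Vps13c-cKO and 15.1 to 20.01 CPM in WT mice, and their part in the paralogs' rise was not tested. Exons of Atp2a1 overlap those of Rabep2 on the opposite strand over 763 of 3477 bases.

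**Figure D4:**
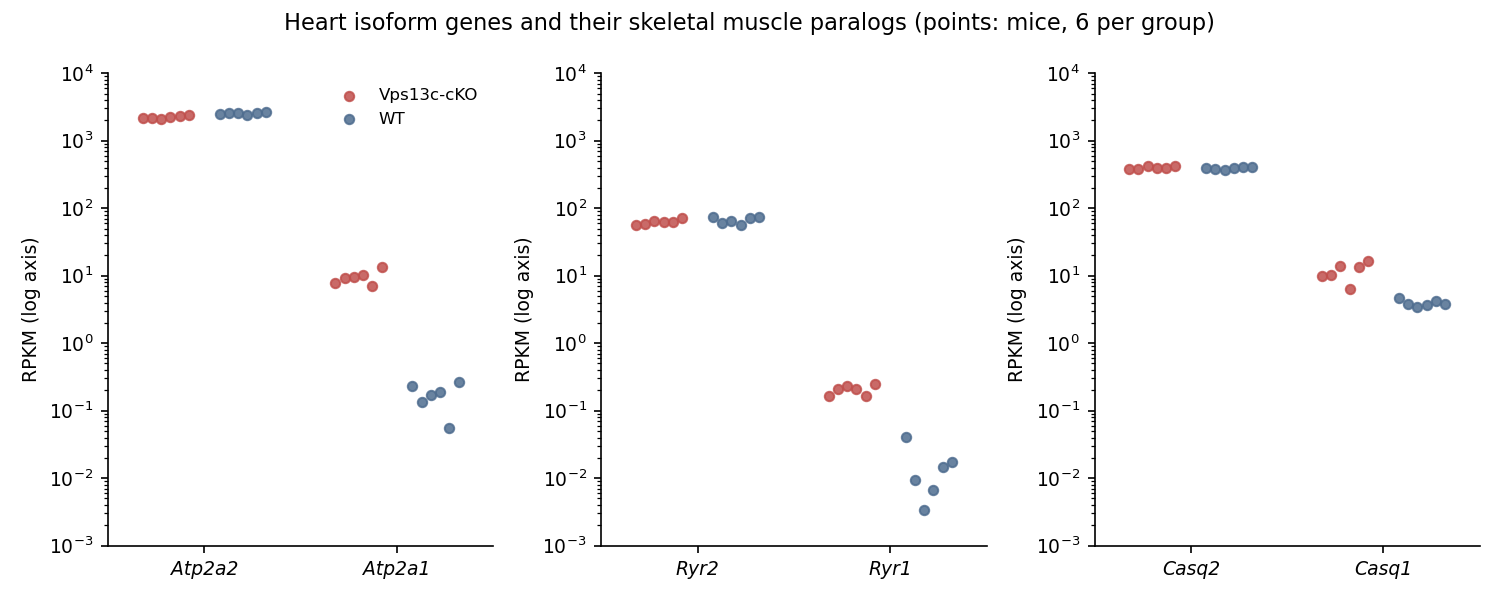
RPKM on a log axis of the heart form and the skeletal muscle form of the pump, release channel and calsequestrin in each mouse, Vps13c-cKO left of WT. The skeletal forms are higher in every Vps13c-cKO mouse than in any WT mouse, and remain far below the heart forms, Atp2a1 at 0.422% of the summed Atp2a level.

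Beyond the 10, other genes of uptake, storage and release were examined, 24 in all, of which 20 could be tested. They included the 3 that rose above and 1 that fell, Itpr2, an inositol trisphosphate receptor (-0.30 ± 0.07, edgeR adjusted p = 0.00796), and their median log2 fold change was 0.02. Over all tested genes 5.65% were higher and 5.1% lower. Strit1, which encodes DWORF, a peptide that relieves the brake on the pump, had 0.658 ± 0.204 CPM in Vps13c-cKO and 1.06 ± 0.374 CPM in WT mice (-0.69 ± 0.28, edgeR adjusted p = 0.132). Tmem38a, a potassium channel of the sarcoplasmic reticulum, had a log2 fold change of -0.06 ± 0.03 (edgeR adjusted p = 0.263).

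Of 24 regulators of the cycle, 23 were tested, with 2 higher, 3 lower (5.65% and 5.1% over all tested genes) and a median log2 fold change of 0.00. Those that fell were Pde3a, a cyclic AMP phosphodiesterase found with the pump (-0.22 ± 0.05, edgeR adjusted p = 0.00480), Camk2g, a calcium and calmodulin dependent kinase (-0.19 ± 0.05, edgeR adjusted p = 0.01003), and Cmya5 (-0.21 ± 0.05, edgeR adjusted p = 0.00438). Those that rose were Mybpc3, cardiac myosin-binding protein C (0.14 ± 0.04, edgeR adjusted p = 0.0161), and Prkar1a, a regulatory subunit of protein kinase A (0.16 ± 0.05, edgeR adjusted p = 0.0378). Mybpc3 is also on the list of ventricular cardiomyocyte markers and is counted in both. The call on Prkar1a was lost in 8 of the 12 fits that left out 1 mouse. Camk2d, the main cardiac form of the kinase that phosphorylates phospholamban and Ryr2, had a log2 fold change of 0.00 ± 0.03 (edgeR adjusted p = 0.985).

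Of 19 genes of the dyad and cell membrane, 18 were tested, with 1 higher, 2 lower and a median log2 fold change of -0.02. Over all tested genes 5.65% were higher and 5.1% lower. The 1 of 18 higher is at its share and the 2 of 18 lower are above theirs, with no test of the list run. Cacna1c, the pore of the L-type channel that triggers Ryr2, had 306 ± 14.4 CPM in Vps13c-cKO and 351 ± 28.3 CPM in WT mice (-0.20 ± 0.05, edgeR adjusted p = 0.00684). Its auxiliary subunit Cacnb2 had 78.0 ± 3.04 CPM in Vps13c-cKO and 69.4 ± 3.08 CPM in WT mice (0.17 ± 0.04, edgeR adjusted p = 0.00841). Pore and subunit thus changed in opposite directions. Slc8a1 had 417 ± 25.1 CPM in Vps13c-cKO and 466 ± 33.3 CPM in WT mice (-0.16 ± 0.05, edgeR adjusted p = 0.0277), a call lost in 6 of the 12 fits that left out 1 mouse.

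**Figure D5:**
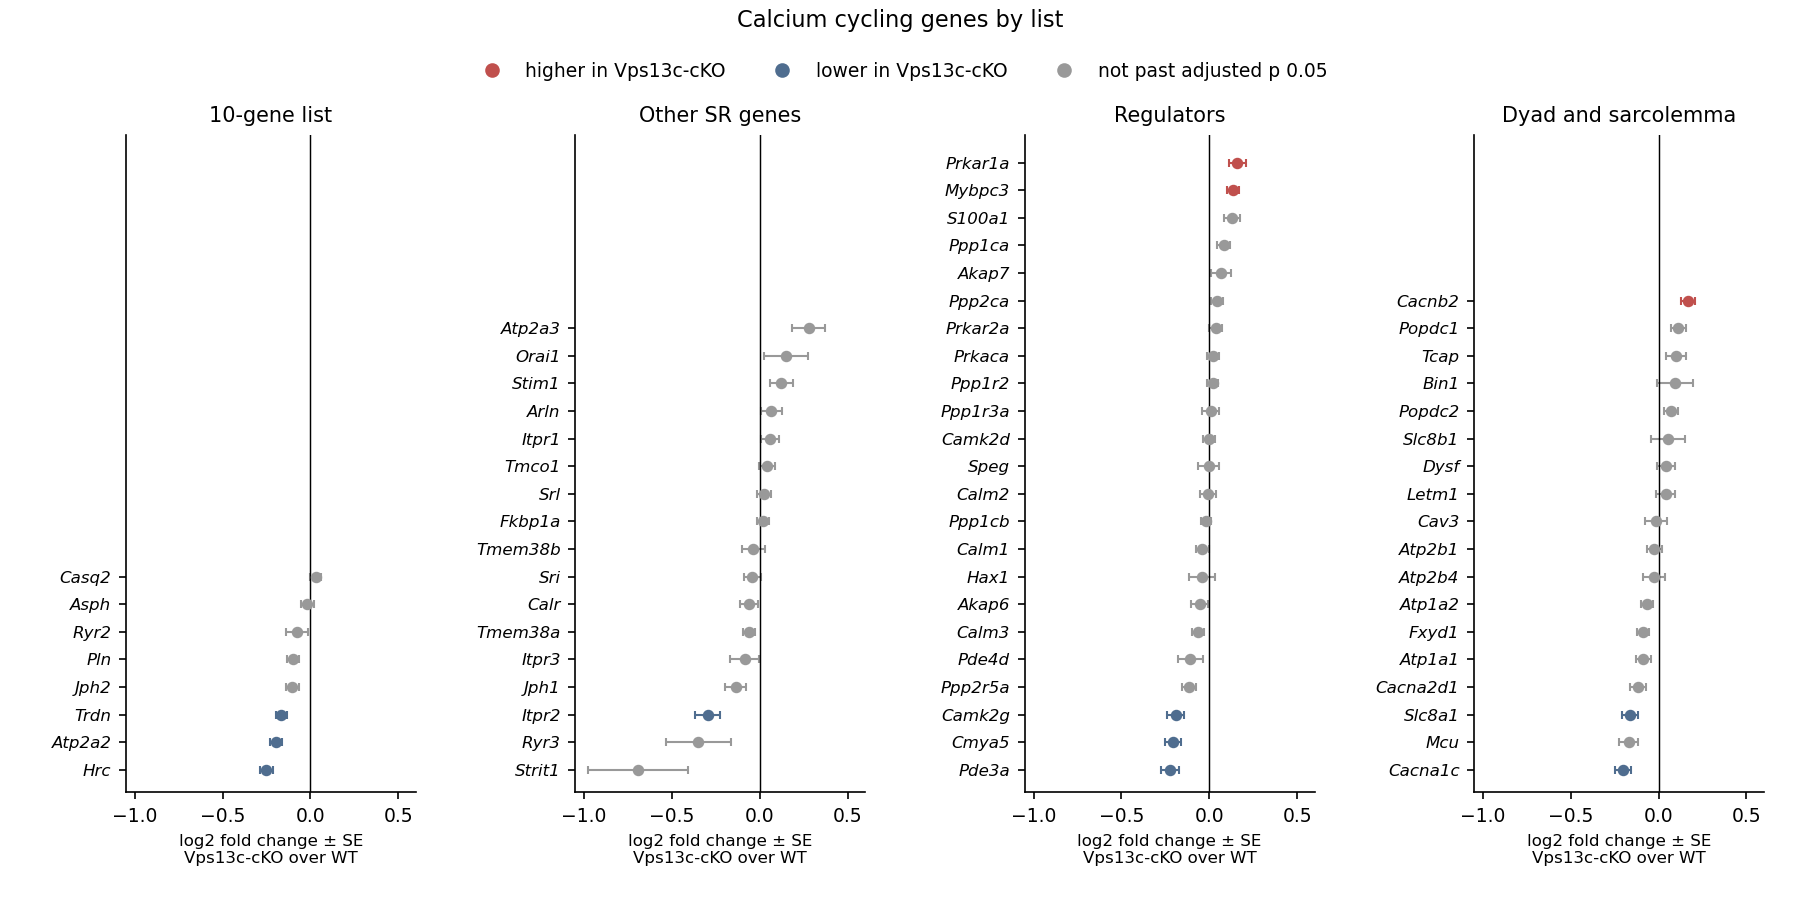
Log2 fold change ± SE, Vps13c-cKO over WT, of each tested gene in the 4 lists; coloured points passed an adjusted p of 0.05 in the edgeR test, with Atp2a1, Ryr1 and Casq1 beyond the axis and not drawn. Of the 8 tested genes of the first list 3 are lower and 0 higher, while the other lists hold genes called in both directions.

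Markers of other cells of the ventricle were counted in the same way, beside the 5.65% higher and 5.1% lower over all tested genes. Of 10 fibroblast markers, all tested, 7 rose, and their sum was 2196 to 2450 CPM in Vps13c-cKO and 1918 to 2172 CPM in WT mice. Of 10 macrophage markers 4 rose, at a summed 353 to 423 CPM in Vps13c-cKO and 288 to 407 CPM in WT mice. Of 10 endothelial markers 1 fell, Cldn5, at a summed 1359 to 1549 CPM in Vps13c-cKO and 1464 to 1618 CPM in WT mice. Of 10 smooth muscle and pericyte markers 9 were tested, with 1 higher and 2 lower, at a summed 1569 to 1638 CPM in Vps13c-cKO and 1631 to 1946 CPM in WT mice. Of the 10 ventricular cardiomyocyte markers 2 rose and 3 fell, with a median log2 fold change of -0.03, beside -0.10 for the 8 calcium cycling genes. Those that fell were Tnni3 (-0.22, edgeR adjusted p = 0.000138), Tnnt2 (-0.13, edgeR adjusted p = 0.0173) and Myl2 (-0.13, edgeR adjusted p = 0.00947). Tnni3 thus fell by more than Atp2a2 at -0.20 and Trdn at -0.17. Those that rose were Tnnc1 (0.18, edgeR adjusted p = 0.0114) and Mybpc3, also counted among the regulators. The part of these markers in the lower Atp2a2, Hrc and Trdn was not tested.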

How the data were processed

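Ventricle RNA of 6 Vps13c-cKO and 6 WT mice was sequenced after poly-T bead capture, fragmentation, random priming and 15 PCR cycles, per the labels' protocols, which mention no molecular identifiers or strand marking. The authors deposited raw read counts for each gene, per the file headers. Trimming, alignment and counting tools named in the submitters' processing notes are fastp (0.22.0), HISAT2 (2.1.0) and HTSeq (0.9.1), on build GRCm39; the sources used here give neither the annotation release nor the strand setting. Symbols, chromosomes and exon lengths came from GENCODE M21 on GRCm38, another build. The only coordinates given are therefore those of the Hrc and Casq2 promoter windows, on GRCm38.p6. Of the 21959 gene IDs, 21851 had a name. Columns were matched to mice by their names, and groups were taken from the titles.

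Counts were filtered with filterByExpr, scaled by TMM and tested in edgeR 4.0.16 (R 4.3.3) by its two-sided quasi-likelihood test, using Benjamini-Hochberg adjustment over 12384 genes and calls at an adjusted p under 0.05. Log2 fold changes are Vps13c-cKO over WT, with SE and 95% intervals from the same fit. CPM used TMM-scaled library sizes and RPKM all exon bases of a gene. The floor of 3 counts covers counting error only, while the intervals include the spread between mice. Ratios of counts, with 0.5 added, were compared by exact permutation over mice. Alternatives were other scalings, filters and tools (DESeq2 1.42.0, limma 3.58.1), a replicate block, leaving out each mouse, and omitting mitochondrially encoded or chromosome 7 genes.

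Chi-square per gene between mice within a group was 3.11 to 5.62, so no library was treated as a duplicate. The 10 genes and all lists were chosen with earlier results of these data known, so their counts and medians are descriptions. Named are the 10 genes, Vps13c, the genes called on the 3 other calcium lists, the 3 genes most like Atp2a2, some cell type markers, and a short set named whatever their values.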

Additional observations from a re-analysis of the deposited data

Results flagged for a closer look

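In groups of 6 mice, a value was looked at again when its gap to the nearest mouse was large against the range of the group (Dixon's test at the 95% level, which marks about 1 in 20 groups by chance). Of 50 groups examined, 7 had such a value, 4 of them in WT mouse 4. In that library Sln had 8.24 CPM where the other 5 WT libraries had 0. Myl7 had 29.3 CPM there, with 0 to 0.148 CPM in the other WT libraries, Myl4 had 31.3 CPM, with 0.509 to 1.46 CPM in the others, and Mybphl had 3.61 CPM, with 0 to 0.230 CPM in the others.

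In the Vps13c-cKO group, Sln had 0.0706 CPM in mouse 3, which is a single read, and 0 in the others. Mybphl had 1.13 CPM in Vps13c-cKO mouse 6, with 0 to 0.400 CPM in the others. The log2 ratio of Jph2 to Ryr2 reads was -2.20 in Vps13c-cKO mouse 1, with -2.50 to -2.41 in the others.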

How the results depend on the processing

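Atp2a2, Hrc and Trdn were lower in Vps13c-cKO ventricles and past the threshold under every alternative that gave them a value; without chromosome 7 genes Hrc had none. Leaving out each mouse gave log2 fold changes of -0.22 to -0.18 for Atp2a2, -0.27 to -0.24 for Hrc and -0.18 to -0.15 for Trdn. The count of calcium cycling genes called lower was 3 to 4 without 1 mouse and 2 to 4 elsewhere, the 4 without a filter including Sln, to which DESeq2 gave no adjusted p, and the count called higher was 0 throughout. Over all genes, 1331 calls became 1065 to 1397 without 1 mouse and 1136 to 1410 elsewhere. Of the 8 count ratios, 1 was past the threshold, 1 to 5 without 1 mouse (5 without WT mouse 4, Sln to Atp2a2 among them) and 0 with the replicate block. There Hrc to Casq2 kept its difference of -0.28 (adjusted p = 0.125, exact permutation within same-numbered mice), but that test cannot give a p under 0.0312, so a lone ratio could not reach the threshold once adjusted over 8. Signs turned for Asph without WT mouse 1 (0.0031, with -0.032 to 0.0031 over the mice left out), for Jph2 to Ryr2 without WT mouse 2 or 4 (0.010 and 0.015, range -0.079 to 0.015) and for Sln to Atp2a2 without WT mouse 4 (0.56, range -1.07 to 0.56), where the counts are 0 or 1 and the value comes from the 0.5 added. Same-numbered mice of the 2 groups correlated at -0.0396 to 0.0618 and different-numbered ones at -0.0942 to 0.0705. The numbers thus showed no pairing, though such correlations cannot exclude it. With the replicate block there were 1312 calls over all genes, and no call on the 10 genes changed. Depth limits Sln and Fkbp1b.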

Other observations

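Among the atrial markers, Kcnj3, a subunit of the acetylcholine-gated potassium channel, and Nppa, the gene of atrial natriuretic peptide, differed between the groups in opposite directions, and WT mouse 4 did not stand out in Kcnj3. Kcnj3 had 60.6 to 82.4 CPM in Vps13c-cKO and 99.6 to 114 CPM in WT mice, a log2 fold change of -0.64 ± 0.06 (edgeR adjusted p = 2.54e-07), with all 6 Vps13c-cKO mice below all 6 WT mice. Nppa had 12.5 to 27.3 CPM in Vps13c-cKO and 3.14 to 7.95 CPM in WT mice, 2.12 ± 0.21 (edgeR adjusted p = 5.31e-07), and its highest WT value was that of mouse 4.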
